A study of Mus musculus with 6 samples.

Results

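The 10 genes described here encode subunits of the transcription factor NF-kB (Rela, Relb, Nfkb1 and Nfkb2) and proteins that restrain it or feed back on it (Nfkbia, Nfkbib, Nfkbie, Nfkbiz, Bcl3 and Tnfaip3). The second set is called the inhibitory genes for short. All 10 genes are in the deposited count table of 41819 genes and were among the 11509 with enough counts to be tested. They were chosen by name from earlier results of these same dishes, so their differences between groups are given as a description and not as independent support for any direction. The cells were mouse 3T3 fibroblasts, an immortalized embryonic line, from 1 clone that carried a lentiviral TetOne cassette for human PARG (hPARG), the enzyme that takes poly(ADP-ribose) apart. The 3 control dishes held this clone without doxycycline, and the 3 hPARG dishes held it with 500 ng/ml doxycycline for 72 h. Poly(A) RNA was sequenced from each dish. The sample labels speak of wells and the study's methods of larger dishes, and each culture is called a dish in what follows. No RNA from doxycycline-treated cells without the cassette was analysed here, so doxycycline and hPARG cannot be told apart in these dishes. The study also shows qPCR of selected genes in doxycycline-treated cells without the cassette, which was not used here. The dishes were parallel cultures of this clone, and the p-values measure only the spread between them, which may be technical.

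NF-kB proteins bind DNA as dimers. In resting cells they are held in the cytoplasm by IkB proteins, of which IkB-alpha (Nfkbia), IkB-beta (Nfkbib) and IkB-epsilon (Nfkbie) are the classical forms. Inflammatory signals activate the IKK kinase complex, which marks IkB for ubiquitination and destruction, and the released dimers enter the nucleus and induce chemokines, adhesion molecules and survival genes. Several of the induced genes, Nfkbia and Tnfaip3 among them, encode inhibitors that close the loop, so that their transcripts rise and fall with the activity they restrain. In fibroblasts this circuit drives the secretion of chemokines that call in leukocytes.

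The kappaB consensus, the DNA motif of 10 bases that NF-kB dimers bind, was searched by its name on both strands of RefSeq promoter windows (GRCm38.p6), which reach from 250 bases before to 50 bases after each start site. Of the 10 genes, 7 were matched to the promoter table, and Relb, Nfkb1 and Nfkbiz were not. The consensus occurred in 1 of the 2 matched subunit genes (Nfkb2) and in 4 of the 5 matched inhibitory genes (Nfkbia, Nfkbie, Bcl3 and Tnfaip3). Among all windows, 1480 of 32851 (4.51%) held it, and 1388 of 27025 genes (5.14%) had it in at least 1 window. The windows of Rela and Nfkbib did not contain these letters. The stretches around the matches are shown as a feature of these genes that does not come from their RNA levels. No link between a match and a difference in RNA was tested. Each stretch is written on the strand of the gene, and capitals mark letters that match the consensus on either strand. For Nfkbia, the gene with the largest difference of the 10, the whole 250 bases before the start site are given (minus strand, chr12:55492648-55492897), and the match lies 29 to 20 bases before the start. The stretch of Nfkb2 (plus strand, chr19:46304678-46304755) holds 2 places, the second of them 11 to 2 bases before the start of the window's transcript, and both further windows of Nfkb2 held matches as well. The window of Tnfaip3 shown in part held a second match, 125 to 116 bases before the start, and its other window (chr10:19011914-19012213) held 0. Those of Nfkbie (plus strand, chr17:45555574-45555623) and Tnfaip3 (minus strand, chr10:19015393-19015442) hold a match before the start, and that of Bcl3 (minus strand, chr7:19822736-19822773) holds it from base 3 to base 12 of the transcript.
Nfkbia: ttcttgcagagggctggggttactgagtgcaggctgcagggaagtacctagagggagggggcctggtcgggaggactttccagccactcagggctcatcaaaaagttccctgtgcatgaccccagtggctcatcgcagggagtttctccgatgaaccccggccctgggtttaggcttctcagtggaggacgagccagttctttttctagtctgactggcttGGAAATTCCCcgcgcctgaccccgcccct
Nfkb2: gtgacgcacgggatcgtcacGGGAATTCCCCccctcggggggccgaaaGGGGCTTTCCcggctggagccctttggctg
Nfkbie: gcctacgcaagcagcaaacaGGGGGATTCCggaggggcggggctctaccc
Tnfaip3: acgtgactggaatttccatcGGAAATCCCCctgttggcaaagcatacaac
Bcl3: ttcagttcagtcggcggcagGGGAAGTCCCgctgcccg
A match is a description of the letters and was not tested for binding.

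Between 21619908 and 25263818 counts were assigned to genes in each dish, and 3 counts, taken as the floor of detection, corresponded to 0.119 to 0.139 CPM, the unit in which counts are scaled to a common library size. All 8 fibroblast markers were present in every dish. Their summed level was 7626, 8461 and 6807 CPM for the controls, by dish number, and 8370, 9710 and 7909 CPM with hPARG, and Vim was the most abundant. None of the 8 was called in the edgeR fit, and 3 had an unadjusted p under 0.05 and were higher in hPARG, against 1.42% of all tested genes. All 8 differences lay above 0, against 50.9% of all tested genes, and in 4 of 8 (Col1a1, Col3a1, Thy1 and Sparc) the groups did not overlap, hPARG being higher, against 3.61%. None of the 8 was called by DESeq2, whereas Col1a1 was called higher without the dishes numbered 2 described below. The summed level of 8 macrophage and leukocyte markers was 11.2 to 18.9 CPM, led by Cd14. Adgre1, which defines macrophages, had 0 counts in all 6 dishes, and Tyrobp had 0 or 1. By contrast, Cd14 had 140 to 246 counts in a dish, Lyz2 101 to 196 and Cd68 11 to 23, whereas Ptprc, Csf1r and Itgam had at most 8. The summed level of 5 endothelial markers was 0.742 to 1.37 CPM and that of 5 epithelial markers 0.0390 to 0.518 CPM, with Emcn and Cldn4 at 0 throughout. Kdr had 4 to 22 counts in a dish, Cdh5 3 to 11 and Cdh1 1 to 10. The remaining endothelial and epithelial markers had at most 3. The part of the fibroblast markers in the differences below was not tested. In dishes of cultured cells, fewer cells that express a gene and less RNA per cell cannot be told apart. Mouse Parg had a log2 difference of 0.04 (SE 0.112, edgeR FDR 0.999), which ranged from -0.031 to 0.117 when 1 dish was left out. The human cassette has no row of its own in the table analysed.

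The 2 dishes numbered 2, 1 in each group, stood apart from the others. On the first principal component, which held 42.0% of the variance, control dish 2 lay at 21.6 and hPARG dish 2 at 24.7, whereas the other 4 dishes lay between -27.4 and -3.17. Across the 11509 tested genes, which are not independent replicates, the deviation of a dish from its group's mean was related to exon length, with a Spearman rho of 0.530 in control dish 2 and 0.521 in hPARG dish 2 and of -0.513 to -0.252 in the other dishes. Exon length ranges from 1610 bases in Nfkbia to 12061 bases in Nfkb1 among the 10 genes. For this reason each member is also given without both dishes numbered 2.

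Among the subunits, Relb was the gene whose control and hPARG dishes did not overlap. RelB is the subunit of the alternative pathway, where it pairs with the processed product of Nfkb2. Relb (chr7:19606217-19629438, GRCm38) was measured at 28.7, 36.5 and 30.9 CPM without doxycycline, by dish number, and at 20.7, 24.2 and 18.6 CPM with it. Every hPARG dish lay below every control dish. The log2 difference was -0.60 (SE 0.141, 95% interval -0.92 to -0.27), and the edgeR FDR over all tested genes was 0.567. Without both dishes numbered 2 it was -0.60 with an edgeR FDR of 0.0380. DESeq2 gave an adjusted p of 0.0444 with all 6 dishes, and over all alternatives the adjusted p ranged from 0.00144 to 0.9999.

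Rela (chr19:5637483-5648130) encodes the main activating subunit of the classical pathway. Its level was 120, 167 and 123 CPM in the control dishes and 107, 123 and 97.1 CPM in the hPARG dishes, in the order of their numbers. Dish 2 was the highest of each group, and hPARG dish 2 overlapped with the controls. The log2 difference was -0.33 (SE 0.155, 95% interval -0.69 to 0.03, edgeR FDR 0.999), -0.25 without both dishes numbered 2 (edgeR FDR 0.514) and -0.16 without control dish 2 alone. Nfkb1 and Nfkb2 encode precursors that are processed to DNA-binding subunits and that, unprocessed, hold other subunits back as IkB proteins do. Nfkb1 (chr3:135584655-135691547) had 101, 139 and 88.7 CPM in the control dishes and 87.9, 112 and 83.3 CPM in the hPARG dishes. Nfkb2 (chr19:46304320-46312385) had 220, 291 and 216 CPM in the control dishes and 191, 232 and 185 CPM in the hPARG dishes. Both showed the same arrangement as Rela, with dish 2 the highest of its group and the groups overlapping. Their log2 differences were -0.22 for Nfkb1 (SE 0.188, 95% interval -0.65 to 0.22) and -0.26 for Nfkb2 (SE 0.152, 95% interval -0.61 to 0.09), with an edgeR FDR of 0.999 each. Without both dishes numbered 2 these were -0.15 and -0.21, and without control dish 2 alone -0.011 and -0.11. For Nfkb1 the value also moved by over 1.5 times without control dish 3 (-0.35), hPARG dish 2 (-0.36) or hPARG dish 3 (-0.13).

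**Figure D1:**
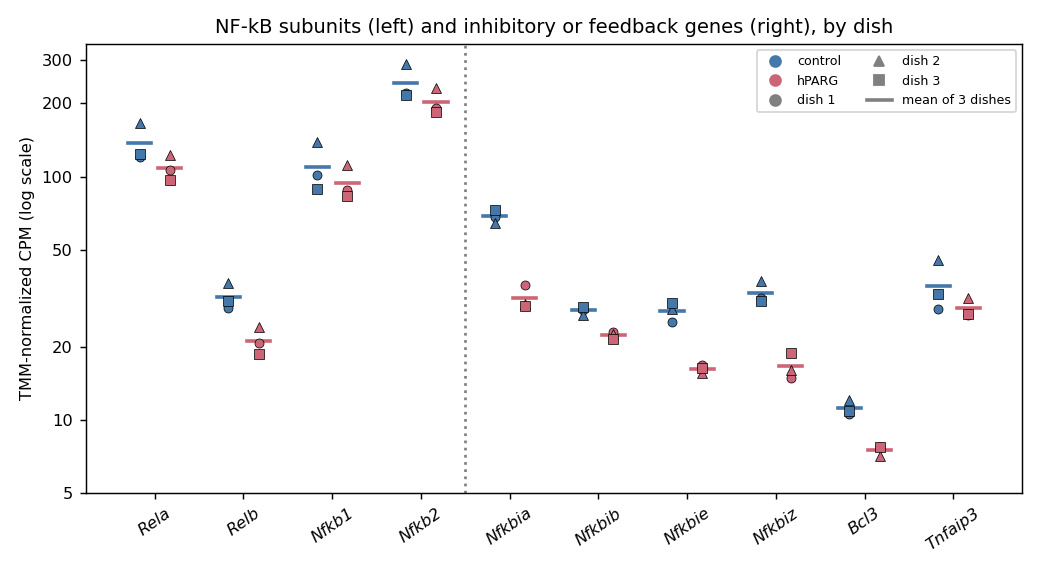
Level of each of the 10 genes in each dish, in TMM-normalized CPM on a log axis, with subunits left of the dotted line; symbols stand for dishes 1 to 3 and bars for the mean of 3 dishes. The hPARG dishes of Relb, Nfkbia, Nfkbib, Nfkbie, Nfkbiz and Bcl3 all lie below the control dishes, whereas those of Rela, Nfkb1, Nfkb2 and Tnfaip3 overlap with them.

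Nfkbia was the only gene of the 10 that was called in the edgeR fit of all 6 dishes (FDR under 0.05), and was 53.8% lower in the hPARG dishes. It encodes IkB-alpha, the inhibitor that NF-kB induces most directly and that ends each round of activity. Nfkbia (chr12:55489410-55492647) was measured at 67.9, 64.5 and 73.2 CPM in control dishes 1 to 3, from 1740, 1499 and 1552 counts. In hPARG dishes 1 to 3 it was measured at 35.7, 29.9 and 29.5 CPM, from 778, 725 and 642 counts. All hPARG dishes lay far below all control dishes, and dish 2 was not the highest of either group. The means were 68.5 ± 4.37 CPM in control and 31.7 ± 3.47 CPM in hPARG (SD, n = 3), which is 2.16-fold lower, with a log2 difference of -1.11 (SE 0.115, 95% interval -1.38 to -0.85, edgeR FDR 0.0216). Without both dishes numbered 2 the log2 difference was again -1.11, with an edgeR FDR of 0.000245. The call was lost when control dish 1 (edgeR FDR 0.147), control dish 3 (0.0849), hPARG dish 1 (0.0754) or hPARG dish 3 (0.220) was left out alone, and the log2 difference then lay between -1.21 and -1.06.

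The other classical inhibitors were lower by smaller amounts and were not called in the edgeR fit reported here. Nfkbie (chr17:45555703-45563169), which encodes the delayed inhibitor IkB-epsilon, had 25.2, 28.4 and 30.2 CPM in the control dishes and 16.8, 15.6 and 16.3 CPM in the hPARG dishes. The hPARG dishes were tightly grouped below the lowest control dish. The log2 difference was -0.78 (SE 0.110, 95% interval -1.04 to -0.53, edgeR FDR 0.0795). Without both dishes numbered 2 it was -0.74 with an edgeR FDR of 0.0144, the DESeq2 adjusted p was 3.30e-06, and over all alternatives the adjusted p ranged from 3.30e-06 to 0.605. Nfkbib (chr7:28758251-28767512), which encodes the more slowly degraded IkB-beta, had 28.3, 27.0 and 29.2 CPM in the control dishes and 23.0, 22.6 and 21.6 CPM in the hPARG dishes. Here too the groups did not overlap, but the log2 difference was -0.33 (SE 0.0950, 95% interval -0.55 to -0.11, edgeR FDR 0.829), and -0.36 without both dishes numbered 2. The 95% intervals of Nfkbib and Nfkbia did not overlap, and the difference between the 2 genes was not tested.

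Nfkbiz and Bcl3 encode atypical IkB proteins that act in the nucleus on NF-kB dimers already bound to DNA, and IkB-zeta, the product of Nfkbiz, is needed for the induction of a set of secondary inflammatory genes. Nfkbiz (chr16:55811375-55838899) had 31.8, 37.1 and 30.7 CPM in the control dishes and 14.9, 16.0 and 18.9 CPM in the hPARG dishes. All hPARG dishes lay well below the controls. The log2 difference was -0.9995 (SE 0.132, 95% interval -1.31 to -0.69) and the edgeR FDR was 0.0620. Without both dishes numbered 2 it was -0.88 with an edgeR FDR of 0.00428, the DESeq2 adjusted p was 1.39e-07, and over all alternatives the adjusted p ranged from 7.80e-08 to 0.347. Bcl3 (chr7:19808462-19822770), a nuclear partner of the Nfkb1 and Nfkb2 products, had 10.6, 12.04 and 10.8 CPM in the control dishes and 7.75, 7.09 and 7.71 CPM in the hPARG dishes. The groups did not overlap. Its log2 difference was -0.57 (SE 0.117, 95% interval -0.84 to -0.30, edgeR FDR 0.419), and -0.47 without both dishes numbered 2 (edgeR FDR 0.418). The DESeq2 adjusted p was 0.0553, and over all alternatives the adjusted p ranged from 0.0178 to 0.9999. Bcl3 and Relb lie on chromosome 7 with 179 kb between them.

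Tnfaip3, which encodes the ubiquitin-editing enzyme that shuts off signalling upstream of IKK, overlapped between the groups, as did Rela, Nfkb1 and Nfkb2. Tnfaip3 (chr10:19000910-19015657) had 28.5, 45.3 and 32.9 CPM in the control dishes and 27.1, 31.8 and 27.2 CPM in the hPARG dishes. Dish 2 was the highest of each group and hPARG dish 2 overlapped with the controls. The log2 difference was -0.31 (SE 0.178, 95% interval -0.72 to 0.11, edgeR FDR 0.999), -0.17 without both dishes numbered 2 (edgeR FDR 0.851) and -0.093 without control dish 2 alone.

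**Figure D2:**
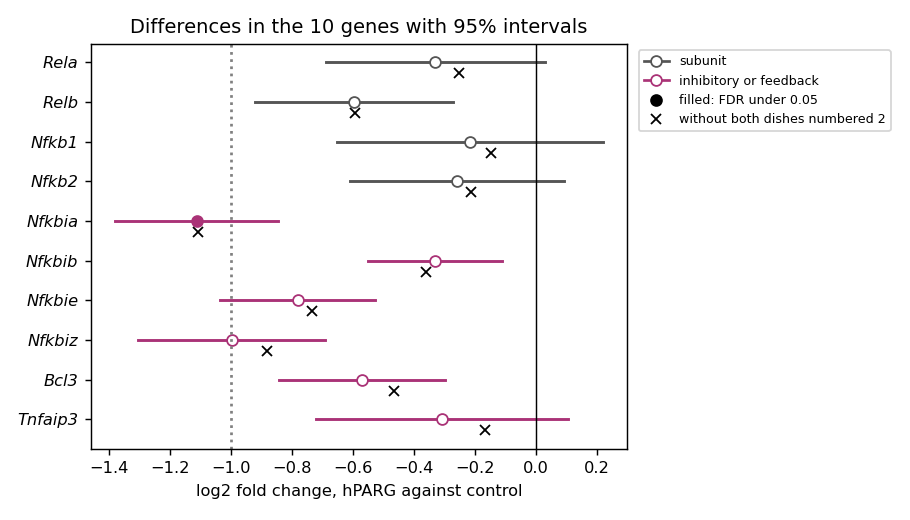
Log2 fold change of hPARG against control for the 10 genes from the edgeR fit (circles) with 95% intervals, and the same without both dishes numbered 2 (crosses); the dotted line marks a 2-fold fall. Nfkbia, the filled circle at -1.11, is the gene with an FDR under 0.05, and the intervals of Rela, Nfkb1, Nfkb2 and Tnfaip3 include 0.

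Set side by side, the inhibitory and feedback genes had a median log2 difference of -0.68 and the subunits one of -0.30, against 0.00 for all tested genes. The edgeR fit called 1 of the 6 inhibitory genes and 0 of the 4 subunits lower, where 0.0782% of all tested genes were called lower. At an unadjusted p under 0.05 there were 5 of 6 inhibitory genes and 1 of 4 subunits, against 2.54% of all tested genes in that direction. DESeq2 called 3 inhibitory genes (Nfkbia, Nfkbie and Nfkbiz) and 1 subunit (Relb), against 0.339%. Without both dishes numbered 2, edgeR called these 4 genes too, against 0.242%. With the replicate block described below, edgeR also called Rela (FDR 0.0164), Nfkb2 (0.0246), Nfkbib (0.0409) and Bcl3 (0.0214) lower, against 1.56%. Nfkb1 and Tnfaip3 were not called in that fit. The groups did not overlap, hPARG being lower, for 5 of 6 inhibitory genes (all except Tnfaip3) and 1 of 4 subunits (Relb), against 6% of all tested genes. All 10 log2 differences lay below 0, against 49.1% of all tested genes. Because the genes were chosen from these dishes, nothing is read from these counts beyond their size, and whether the inhibitory genes as a class differed from the subunits was not tested.

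Within a dish, the balance between inhibitor and subunit transcripts can be given per length, in RPKM, without regard to how the dishes were scaled. The ratio of Nfkbia to Rela RPKM was 1.08, 0.739 and 1.13 without doxycycline, by dish number, and 0.638, 0.465 and 0.579 with it. It was lowest in dish 2 of each group, and the groups did not overlap. The means were 0.982 ± 0.213 and 0.561 ± 0.0877 (SD, n = 3). The sum of the 3 classical IkB genes was 62.9 ± 1.40 RPKM in control and 33.6 ± 2.67 RPKM in hPARG, and the sum of the 4 subunits was 132 ± 28.5 and 105 ± 16.3 RPKM. The ratio of these sums was 0.520, 0.378 and 0.576 in the control dishes and 0.365, 0.271 and 0.342 in the hPARG dishes, again without overlap. Nfkbia made up 64.0 ± 0.984% of the IkB sum in control and 54.1 ± 1.998% in hPARG, and the groups did not overlap. Within the subunit sum, Nfkb2 made up 40.6 ± 0.398% in control and 41.7 ± 0.625% in hPARG, and Relb 8.74 ± 0.652% and 7.05 ± 0.157%. Neither share overlapped between the groups, that of Nfkb2 being higher and that of Relb lower in the hPARG dishes. When all 6 inhibitory genes were set against all 4 subunits, the mean log2 CPM differed by -1.75, -1.98 and -1.63 in the control dishes and by -2.05, -2.35 and -1.96 in the hPARG dishes. On this scale control dish 2 lay below hPARG dish 3, so the groups overlapped, and they did not overlap without the dishes numbered 2. The change of the mean between groups was -0.33, and -0.22 when hPARG dish 2 alone was left out. As described above, IkB-zeta is also needed for induction, and the unprocessed Nfkb1 and Nfkb2 products also hold subunits back. The difference between these lists therefore does not measure a balance of inhibitors against activators.

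**Figure D3:**
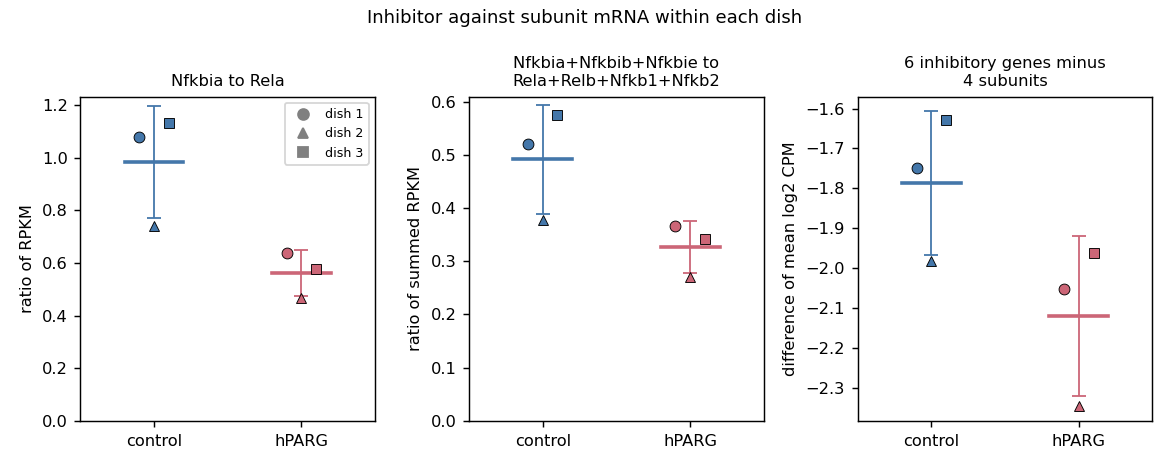
Inhibitor against subunit transcripts within each dish, as the ratio of Nfkbia to Rela RPKM (left), the ratio of the summed RPKM of 3 classical IkB genes to that of 4 subunits (middle) and the mean log2 CPM of 6 inhibitory genes minus that of 4 subunits (right); bars show the mean and whiskers the SD of 3 dishes. The hPARG dishes lie below the control dishes in the left and middle plots, and in the right plot hPARG dish 3 (-1.96) lies just above control dish 2 (-1.98).

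By level per length, the control dishes had 3 genes at the top, Nfkb2 (53.5 ± 11.0 RPKM), Rela (42.3 ± 9.26 RPKM) and Nfkbia (40.2 ± 1.15 RPKM), of which Rela overlapped with both others and Nfkb2 and Nfkbia did not overlap. Nfkb1 followed at 24.7 ± 6.67 RPKM, apart from its neighbours on either side. The order in both groups rests on the lengths behind the deposited RPKM. These differ from the exon bases for Nfkb1 (12061 exon bases) and also for Relb (3885), Tnfaip3 (7226) and Bcl3 (2475). An order by exon bases was not made. Nfkbib (12.04 RPKM), Relb (11.4 RPKM) and Nfkbie (10.6 RPKM) overlapped in turn, and Nfkbiz (7.47 RPKM), Tnfaip3 (6.78 RPKM) and Bcl3 (5.60 RPKM) formed the lowest group. In the hPARG dishes Nfkb2 (43.6 RPKM) and Rela (32.9 RPKM) stood alone at the top. Nfkbia, at 18.2 ± 2.11 RPKM, lay below Rela and overlapped with Nfkb1 (20.7 ± 3.87 RPKM). Nfkbiz, at 3.64 RPKM, came last and overlapped with Bcl3 (3.68 RPKM). Nfkb2 shares 18.1% of its exon bases with Psd and a further gene on the other strand, Nfkbib 16.4% with Sirt2 and Ccer2, and Bcl3 6.51% with Gm16175. Use of strand in the counting is not given in the sources used here, so reads from these stretches cannot be assigned with certainty. Psd had 309 to 416 counts in a dish, against 4030 to 6771 for Nfkb2. Sirt2 had 552 to 778 counts, against 470 to 724 for Nfkbib, and a log2 difference of 0.16 (edgeR FDR 0.999). Ccer2 had at most 1 count and Gm16175 had 0 in all 6 dishes.

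In CPM over the 6 dishes, Rela, Relb, Nfkb1, Nfkb2 and Tnfaip3 were highest in dish 2 of both groups. Nfkbiz and Bcl3 were highest in dish 2 of the controls only, and Nfkbia, Nfkbib and Nfkbie in dish 2 of neither group. In RPKM, Nfkbie was highest in control dish 2 and Nfkbib in hPARG dish 2. As a description, with 2 groups of 3 dishes behind each value, Pearson's r of log2 CPM was 0.983 between Rela and Nfkb2 and 0.952 between Rela and Tnfaip3, genes that share the high dishes numbered 2. It was 0.989 between Nfkbia and Nfkbib and 0.978 between Nfkbia and Nfkbie, which share the step between control and hPARG. Between Nfkbia and the subunits it was 0.307 for Nfkb1, 0.506 for Nfkb2, 0.608 for Rela and 0.861 for Relb. Of 8759 genes compared (mean of at least 10 CPM), the 5 most like Nfkbia were Rbm45 (r = 0.998), N4bp3 (0.993), Rcc1 (0.991), Med22 (0.991) and Ifi204 (0.991). Their log2 differences were smaller, from -0.22 for Rbm45 to -0.50 for Ifi204. None of the 5 was called in the edgeR fit reported here, and Ifi204 was called by DESeq2 (adjusted p 0.0187, range over all alternatives 0.00937 to 0.9999). N4bp3 and Rcc1 were called in 1 alternative each, the replicate block described below (edgeR FDR 0.00834 and 0.0306). The 5 most like Rela were Tsr1 (r = 0.992), Pik3c2a (0.991), Mta2 (0.985), Gtpbp4 (0.983) and Nfkb2 (0.983).

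The rest of the pathway is given from lists written by role, and Zc3h12a and many of the downstream targets were already known from the study to differ, so their direction is not independent evidence. Over all tested genes and both directions, edgeR called 0.0869%, DESeq2 called 0.452% and 3.95% had an unadjusted p under 0.05 in the edgeR fit, and the counts of the next lists are to be read against these shares. Rel, the remaining subunit gene that was tested, had a log2 difference of -0.35 (edgeR FDR 0.999), which was -0.14 without control dish 2 and -0.21 without hPARG dish 1, and Nfkbid was too low to be tested. Of 13 genes of the IKK complex and its upstream kinases, edgeR and DESeq2 called 0, and 1 had an unadjusted p under 0.05. Their median log2 difference was -0.01. The largest differences in this list were those of Map3k8 (-0.53, edgeR FDR 0.999, and -0.33 without control dish 3), a kinase whose protein is bound by the Nfkb1 precursor, and Ikbke (0.15, and 0.097 without hPARG dish 1). Of the 5 genes of the ligase that ubiquitinates IkB, 0 were called by either tool and 0 had an unadjusted p under 0.05, with Btrc at 0.07 (0.0094 to 0.14 when 1 dish was left out, lowest without control dish 1 and highest without control dish 2), Rbx1 at 0.01 and a median of 0.00. Of 12 tested partners of the Tnfaip3 protein, deubiquitinases and linear ubiquitin enzymes, 0 were called by either tool and 0 had an unadjusted p under 0.05, with Tnip1 at -0.18, Rnf11 at -0.13 and a median of -0.05. Tnip1 was -0.11 without control dish 2 or without hPARG dish 3 and -0.26 without control dish 3, and Rnf11 was -0.081 without both dishes numbered 2. Btrc and Rbx1 changed direction under some alternatives.

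Among 4 genes whose proteins destroy inflammatory mRNA, edgeR called 0 and 1 had an unadjusted p under 0.05, where 3.95% of all tested genes did. That gene, Zc3h12a, encodes a nuclease induced by NF-kB. It had 459, 351 and 355 counts in the control dishes and 143, 219 and 148 counts in those with hPARG. All hPARG dishes lay below the controls, with a log2 difference of -1.15 (SE 0.154, edgeR FDR 0.0620). DESeq2 called it, as did edgeR without both dishes numbered 2. Rc3h2 had a log2 difference of 0.06, and the median of the 4 genes was -0.02. The value of Rc3h2 ranged from -0.0922 to 0.198 when 1 dish was left out.

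Of 40 listed targets of NF-kB, 31 were tested, 7 were called lower by edgeR (0.0782% of all tested genes) and 0 higher, and 30 of the 31 log2 differences lay below 0 (49.1% of all tested genes). Their median was -0.44, and that of the 10 genes described here was -0.45. Both lists were chosen with earlier results of these dishes known, so no likeness is read from these medians. The called targets were the chemokines Cxcl5 (-2.55), Ccl20 (-3.30), Cxcl1 (-2.80) and Cxcl10 (-1.36), complement C3 (-2.80), and the secreted acute-phase proteins Lcn2 (-5.08) and Saa3 (-4.22). Lcn2 had 1 to 5 counts and Saa3 2 to 4 counts in the hPARG dishes, at or near the floor, so the size of their differences is uncertain. DESeq2 called 13 of the 31 lower (0.339% of all genes in that fit), and edgeR without both dishes numbered 2 called 12 (0.242%). Leaving out hPARG dish 1 ended the calls of Saa3 (edgeR FDR 0.241), Ccl20 (0.105), Cxcl1 (0.118), C3 (0.0754) and Cxcl10 (0.257). Leaving out hPARG dish 3 ended those of Saa3 (edgeR FDR 0.220), Ccl20 (0.0906) and Cxcl10 (0.257), control dish 1 or hPARG dish 2 that of Saa3 (0.0847 and 0.0607), and control dish 3 that of Cxcl10 (0.0849). The log2 difference of Nfkbia was smaller in size than that of each of these 7 targets, and those of Rela, Nfkb1, Nfkb2, Nfkbib and Tnfaip3 lay within the middle 95% of all tested genes (-0.39 to 0.44).

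**Figure D4:**
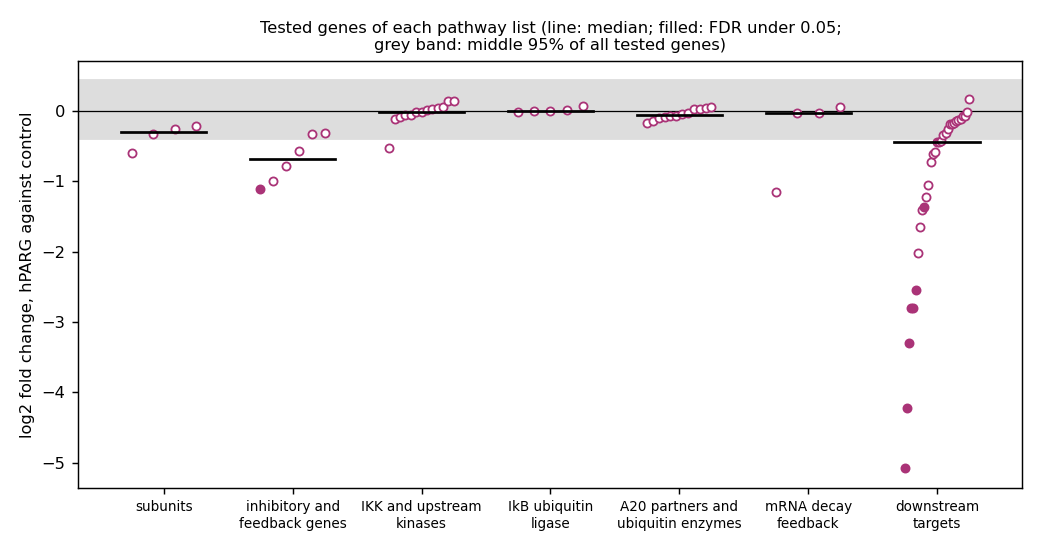
Log2 fold change of hPARG against control for each tested gene of 7 lists of the pathway (points), with the median of each list (line), filled points for an FDR under 0.05 and a grey band for the middle 95% of all tested genes. The kinases, the ubiquitin ligase and the partners of the Tnfaip3 protein centre on 0, the subunits and inhibitory genes lie below it, and the targets reach from 0.18 to -5.08.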

How the data were processed

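Poly(A) RNA of 6 dishes (3 control, 3 hPARG, grouped by the sample labels) was measured. The authors deposited whole-number counts per gene, from 150 bp paired-end reads mapped to GRCm38 with Ensembl release 96 in CLC Genomics Workbench 12.0. The authors also deposited RPKM values, whose library total is not stated; these were used for levels and ratios within a dish. The deposited fold changes and p-values of the authors' own comparison, and the CPM and TPM columns, were not used. By dish number, totals were 25263818, 22512587 and 21619908 counts for control and 22136902, 23897120 and 22482282 counts for hPARG. Floors cover counting error only.

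Genes passing filterByExpr (minimum count 10) were compared with edgeR 4.0.16 (TMM, glmQLFit and glmQLFTest, R 4.3.3, limma 3.58.1) without a block. A Benjamini-Hochberg FDR under 0.05 over 11509 genes counted as called, and 10 genes were (9 lower, 1 higher, all by more than 2-fold). Standard errors were the absolute log2 fold change over the square root of F. DESeq2 1.42.0, other scalings and filters, a likelihood ratio test, a replicate block and leaving out each dish were also run. Leaving out both dishes numbered 2 and an exon length correction were chosen after seeing the data. The code was tested on simulated data. An exact permutation test of 3 against 3 dishes cannot give a p under 0.1, and none was used.

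The members and lists were chosen with earlier results of these data known. Named genes were the 10 members, listed pathway genes that were called, the 2 tested genes of each list with the largest absolute log2 difference, the 5 genes most like Nfkbia and Rela, mouse Parg and the cell type markers. Coordinates and exon lengths are from GENCODE M21 (GRCm38) and promoters from RefSeq.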

Additional observations from a re-analysis of the deposited data

How the results depend on the processing

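All 150 alternative values of the 10 members (15 settings each) had the direction of the value reported, and 378 of 388 values of the other named genes did, cell type markers not included. The settings refit all or some of the same dishes, so these values are not independent of those reported. The edgeR fit reported called 10 genes and 1 member. DESeq2 called 52 genes and 4 members, the likelihood ratio test 65 and 5, no filter 16 and 2, the exon length correction 23 and 3, and the fit without both dishes numbered 2 called 40 and 4. Leaving out 1 dish gave 3 to 13 genes and 0 to 1 members, the fewest without hPARG dish 1 (3 genes) and hPARG dish 3 (5 genes), with fewer samples in each fit. Of the genes called, 90% were lower in the fit reported, 75% with DESeq2, 73.8% with the likelihood ratio test, 70% without both dishes numbered 2 and 54.2% with the replicate block. With the replicate block, 330 genes and 8 members were called (all except Nfkb1 and Tnfaip3). The deviations of same-numbered dishes had r = 0.0963, 0.610 and 0.168 for numbers 1 to 3, so only the dishes numbered 2 clearly deviated together, and the numbers were not taken to pair the dishes. Control dish 1 correlated best with hPARG dish 3 (0.207) and control dish 3 with hPARG dish 1 (0.335), and not every dish with its own number. Values near 0 changed sign, and the cause was not tested. Btrc was -0.0043 and Rc3h2 -0.041 with the exon length correction, and Rbx1 was -0.013 with library size only. Leaving out 1 dish gave -0.104 to 0.156 for Rbx1, -0.0922 to 0.198 for Rc3h2 and -0.031 to 0.117 for Parg. With 3 dishes per group, the 95% intervals of Rela, Nfkb1, Nfkb2 and Tnfaip3 included 0 in the fit reported.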
